A study of Mus musculus with 8 samples.

Results

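The transporters described here were 10 solute carrier genes that move amino acids across kidney cell membranes: Slc6a18, Slc6a19, Slc6a20a, Slc6a20b, Slc6a13, Slc1a1, Slc7a2, Slc36a1, Slc38a4 and Slc43a2. They were picked by gene symbol with earlier results of these data known, as 10 of the 55367 genes listed in the count table. All 10 had enough reads to be tested among 20149 genes. Whole kidneys of 8-week-old C57BL/6J mice were profiled by RNA-Seq in 4 Maf conditional KO mice (c-MafΔTAM: floxed c-Maf alleles with CAG-Cre-ER TM, a tamoxifen-inducible Cre under a promoter active in most cells) and 4 Maf flox/flox mice (c-Maf fl/fl, the same floxed alleles without Cre, called controls here). By the study's methods, both groups received tamoxifen. With this promoter, deletion was limited neither to the kidney nor to a single cell type. The comparison asks which transcripts differ in the adult kidney after loss of c-Maf, a basic leucine zipper transcription factor.

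The proximal tubule takes back nearly all filtered amino acids. Carriers in its brush border, such as the sodium-coupled SLC6 transporters, bring neutral amino acids and proline into the cell, and carriers in the basolateral membrane let them out toward the blood. Some brush border carriers need a companion protein to reach or stay in the membrane, which in the kidney is collectrin (Cltrn) for Slc6a19 and Slc6a18, and loss of human SLC6A19 function causes Hartnup disorder. Not every gene of the set carries neutral or imino acids: Slc1a1 (EAAT3) carries glutamate and aspartate, Slc7a2 (CAT2) carries arginine, lysine and ornithine, and Slc6a13 (GAT2) carries GABA and taurine.

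Libraries held 16649129 to 22990257 counted reads, and levels are given as CPM (counts scaled to a common library size) after TMM scaling, which corrects for library composition. Maf itself was at 9.06 to 34.5 CPM in c-MafΔTAM kidneys and at 305 to 379.9 CPM in control kidneys, so every library matched its label. The labels give no sex, and 3 mice had almost no Xist, the RNA of the inactive X chromosome (c-MafΔTAM mouse 1 with 2 counts and control mice 3 and 4 with 6 and 22 counts), whereas the other mice had 17618 counts or more. Mitochondrial genes took 17.1 to 32.3% of the counts, with the highest share in c-MafΔTAM mouse 1. This library stood apart from its group, since the chi-square per degree of freedom between its counts and those of the other c-MafΔTAM libraries was 66.4 to 95.8, against 5.04 to 13.2 among those. Among controls it was 10.5 between mice 1 and 2, 26.5 between mice 3 and 4 and 40.03 to 80.6 across these pairs. Without c-MafΔTAM mouse 1, 4 of the 10 members fell and 2 rose (Slc6a13 and Slc6a18), beside 1.51% and 0.691% of all genes in that fit. The tissue label was whole kidney although an RNA extraction note in the labels names liver. Of 12 hepatocyte markers, 8 passed the filter, none was called, and their summed level was 35.2 to 50.7 CPM in c-MafΔTAM and 33.5 to 59.7 CPM in controls. Of 8 markers of the proximal tubule segments S1 and S2, 3 were lower in c-MafΔTAM mice (Slc34a1, Slc5a12 and Ass1) and none higher, beside 1.58% and 0.586% of all genes. The summed levels were 11739 to 15936 CPM against 17498 to 19857 CPM, a gap to which Slc34a1 (means of 1745 and 4098 CPM) added most, while the most abundant marker, Lrp2, had a log2 fold change of -0.17 (adjusted P = 0.719) and Cubn one of -0.034 (adjusted P = 0.912). Segment S3 markers were called in 0 of 6 cases, but some of them differed far more by Xist level than by genotype (Cyp7b1 was at 97.8 CPM in c-MafΔTAM mouse 1 and between 1.66 and 2.44 CPM in mice 2 to 4), so this count says little about S3. Markers were called for thick limb in 0 of 5, distal convoluted tubule in 0 of 3, collecting duct in 0 of 7, podocyte in 0 of 5, macrophage in 0 of 6, lymphocyte in 0 of 2 tested, fibroblast and mural cell in 0 of 5, and endothelium in 1 of 6, which was lower. In whole kidney, fewer cells of a type and less RNA per cell cannot be told apart.

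Loss of c-Maf went with lower transcript levels of some of these carriers and not of others. Slc6a19, Slc7a2, Slc38a4 and Slc43a2 fell, Slc6a13 rose, and the other members did not pass the threshold of an adjusted P under 0.05 in edgeR's quasi-likelihood test. The 4 of 10 that fell compare with 1.58% of all tested genes, and the 1 of 10 that rose with 0.586%. Since the members were chosen with earlier results of these data known, these shares are a description and not a test. The same 4 genes were lower in every c-MafΔTAM mouse than in every control, as were 5.62% of all genes, and Slc6a13 was higher in every c-MafΔTAM mouse, as were 4.17% of all genes. The median log2 fold change over the 10 members was -0.034, against 0.0027 over all genes, since 5 members had negative and 5 positive values.

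**Figure D1:**
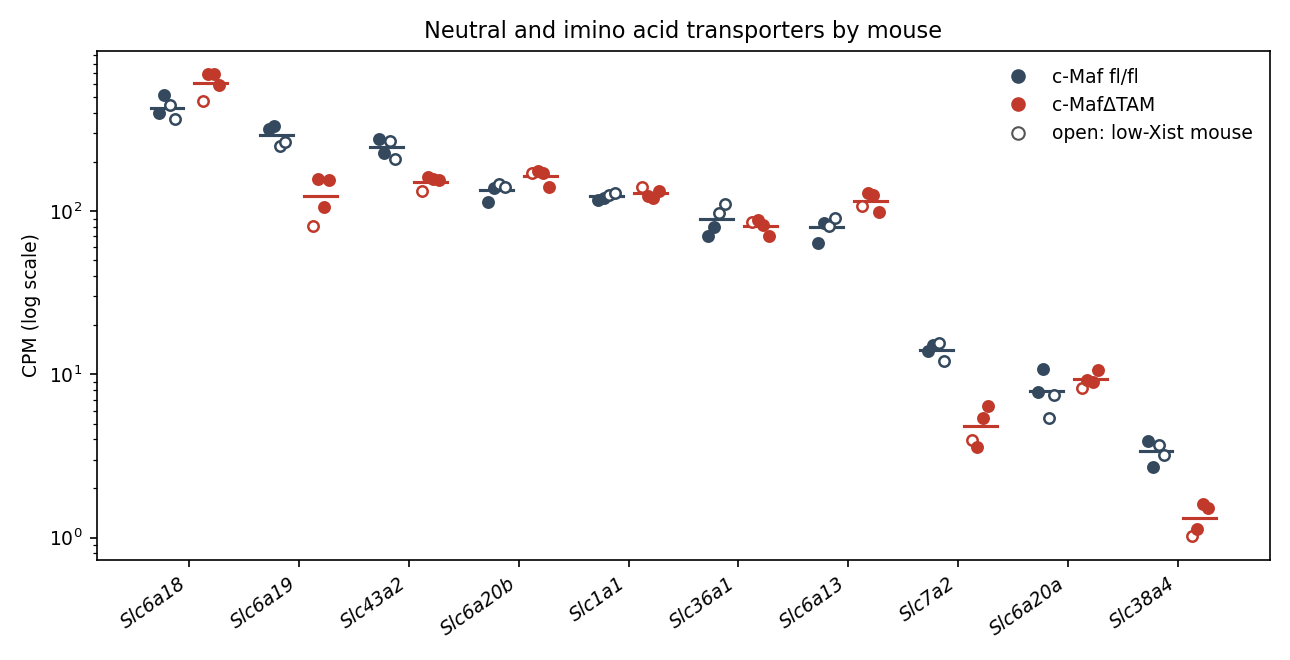
CPM of each transporter in each mouse on a log scale, ordered by the mean in control kidneys, with lines at the group means and open circles for the mice with low Xist. The groups are apart for Slc6a19, Slc43a2, Slc6a13, Slc7a2 and Slc38a4 and overlap for the other genes.

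Slc6a19 encodes B0AT1, the main neutral amino acid carrier of the brush border. It was at 80.7, 156, 106 and 154 CPM in c-MafΔTAM mice 1 to 4 and at 319.6, 333, 249 and 265 CPM in control mice 1 to 4. The highest c-MafΔTAM value was thus well below the lowest control value. Group means of 124 ± 37.2 and 292 ± 40.9 CPM (± SD, 4 mice each) gave a log2 fold change of -1.23 (SE 0.209, 95% interval -1.70 to -0.76) with an adjusted P of 0.0158. The call was lost without c-MafΔTAM mouse 3 (adjusted P = 0.0620) and without control mouse 1 (adjusted P = 0.0550), while the log2 fold change stayed between -1.36 and -1.07 with any 1 mouse left out.

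Slc6a18, which encodes B0AT3, a brush border carrier of glycine and alanine, lies next to Slc6a19 on chromosome 13. In GRCm38 the genes occupy 73661752 to 73678023 and 73679745 to 73704865, both on the minus strand, with 1721 bases between them. Slc6a18 was at 475, 693, 688 and 588 CPM in c-MafΔTAM mice and at 400.2, 514, 445 and 364 CPM in controls. Mice 2 to 4 of the c-MafΔTAM group were above every control, and mouse 1 lay within the control range. The log2 fold change of 0.50 (SE 0.140, 95% interval 0.20 to 0.81) did not pass the threshold (adjusted P = 0.103). It did pass with DESeq2 (adjusted P = 0.0294), with the Xist level as a covariate (0.0230), in high-Xist mice only (0.0191) and without c-MafΔTAM mouse 1 (0.0217, log2 fold change 0.61).

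The ratio of the neighbours was compared within each mouse, where library size and scaling drop out. On the log2 scale, Slc6a19 over Slc6a18 was -2.55, -2.15, -2.70 and -1.93 in c-MafΔTAM mice and -0.32, -0.62, -0.83 and -0.46 in controls. The groups did not overlap, and the mean difference of -1.77 had a 2-sided exact permutation P of 0.0286, the smallest that 4 against 4 mice allow, and 0.114 after adjustment over the 4 ratios tested. Per kilobase of exon, Slc6a19 made up 37.5 ± 3.56% of the sum of both genes in controls and 15.1 ± 3.16% in c-MafΔTAM mice. None of the 4 other tested genes within 100 kb of each gene was called.

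**Figure D2:**
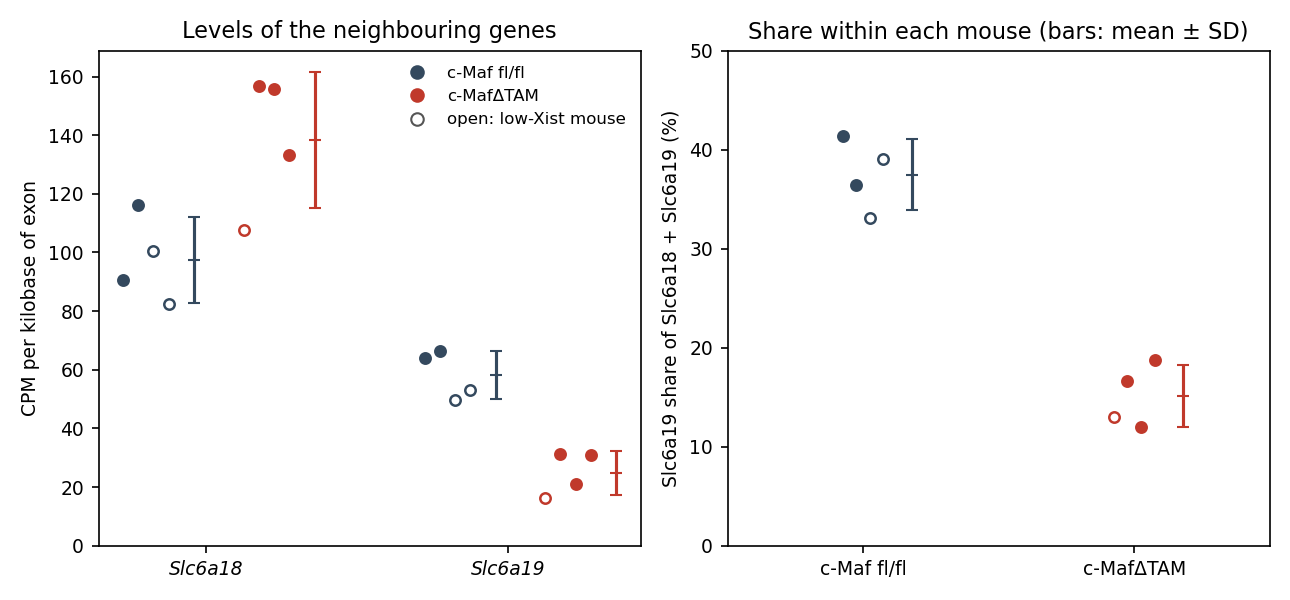
Left, CPM per kilobase of exon of Slc6a18 and Slc6a19 in each mouse. Right, the share of Slc6a19 in the sum of both genes, in percent. Bars are mean ± SD of 4 mice and open circles are mice with low Xist. Every c-MafΔTAM mouse had a share of 18.8% or less and every control one of 33.1% or more.

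Slc6a20a and Slc6a20b are the mouse duplicates of the gene for the proline carrier SIT1, 2204 bases apart on chromosome 9. Slc6a20b was at 172.1, 176, 172 and 140.0 CPM in c-MafΔTAM mice and at 114, 138, 147 and 141 CPM in controls. Only c-MafΔTAM mouse 4 fell within the control range, and the log2 fold change of 0.29 (SE 0.106, 95% interval 0.058 to 0.52) had an adjusted P of 0.236. Slc6a20a was far lower, at 8.29 to 10.7 CPM and 5.38 to 10.8 CPM, with a log2 fold change of 0.24 (95% interval -0.18 to 0.66, adjusted P = 0.644). The log2 ratio of Slc6a20b to Slc6a20a differed by 0.016 between groups (exact permutation P = 0.8286, n = 4 each). These values carry a counting limit, since 18.3% of the 36-base stretches of Slc6a20a transcripts also occur in Slc6a20b and since 21.1% of the exonic bases of Slc6a20b overlap Sacm1l, where reads were left uncounted.

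Slc6a13 encodes GAT2, a carrier of GABA and taurine in the basolateral membrane, and was the member that rose. It was at 107, 128, 126 and 99.0 CPM in c-MafΔTAM mice and at 64.0, 84.2, 80.6 and 90.1 CPM in controls. The gap between the lowest c-MafΔTAM and the highest control value was small. The log2 fold change was 0.53 (SE 0.120, 95% interval 0.27 to 0.79) with an adjusted P of 0.0442, and the call held in 3 of 8 fits with 1 mouse left out (without c-MafΔTAM mouse 1 or 4 or control mouse 4). In the other 5 fits the adjusted P was 0.0843 to 0.161. Its neighbour on chromosome 6, Slc6a12, the betaine and GABA carrier BGT1, was the only called gene among 3 tested within 100 kb. Slc6a12 was at 3.21, 3.65, 3.94 and 6.01 CPM in c-MafΔTAM mice and 1.52, 1.04, 1.57 and 0.70 CPM in controls, a log2 fold change of 1.78 (SE 0.295, adjusted P = 0.00794).

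Slc7a2 and Slc38a4 had low levels in the kidney and fell. Slc7a2 encodes CAT2, a carrier of cationic amino acids. It was at 3.97, 3.59, 5.38 and 6.39 CPM in c-MafΔTAM mice and at 13.8, 15.1, 15.5 and 12.02 CPM in controls. The groups were well apart, with a log2 fold change of -1.55 (SE 0.186, 95% interval -1.95 to -1.14) and an adjusted P of 0.000842. It was the member whose call was kept in all 8 fits with 1 mouse left out and in all 11 other fits at the threshold of 0.05. Slc38a4 encodes SNAT4, a sodium-coupled carrier of neutral amino acids that is abundant in liver. It rested on few reads, namely 20, 22, 29 and 28 counts in c-MafΔTAM mice and 80, 60, 73 and 55 counts in controls. The log2 fold change was -1.36 (SE 0.236, 95% interval -1.88 to -0.85, adjusted P = 0.0103). The summed hepatocyte markers given above overlapped between the groups, but most of that sum was Fga (means of 24.9 and 32.4 CPM). Alb was lower in every c-MafΔTAM mouse (0.66 to 2.57 CPM) than in every control (2.69 to 8.85 CPM), with a log2 fold change of -2.04 and an adjusted P of 0.0803, and Serpina1a was at 1.42 to 14.5 CPM and 1.27 to 4.93 CPM. Their part in the Slc38a4 value was not tested.

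Slc43a2 encodes LAT4, a basolateral carrier through which leucine, phenylalanine and methionine leave the cell. It was at 133, 161, 157 and 155 CPM in c-MafΔTAM mice and at 277, 228, 268 and 209.9 CPM in controls. No values overlapped, and the log2 fold change was -0.70 (SE 0.109, 95% interval -0.94 to -0.46, adjusted P = 0.00563). Exons of Gm45606 overlap 9.18% of the Slc43a2 exonic bases, where reads were left uncounted. Gm45606 was itself called, and it was lower, as Slc43a2 was. Among 41 tested neighbours of the 10 members, 1 was lower (Gm45606) and 1 higher (Slc6a12), beside 1.58% and 0.586% of all genes.

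Slc1a1 and Slc36a1 were the members with the smallest differences. Slc1a1, the brush border carrier of acidic amino acids, was at 120.1 to 139.6 CPM in c-MafΔTAM mice and 116 to 130.0 CPM in controls, and its 95% interval of -0.12 to 0.24 on the log2 scale excluded changes as large as those of the members that fell. Reads over 31.9% of its exonic bases, shared with 4430402I18Rik, were left uncounted. Slc36a1, the proton-coupled carrier PAT1 of glycine, alanine and proline, was at 70.2 to 88.7 CPM and 70.2 to 109.8 CPM, with a 95% interval of -0.42 to 0.16.

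Of the 5 genes reported for companion proteins of the brush border carriers, 2 fell and none rose, beside 1.58% and 0.586% of all genes. These genes, too, were chosen with earlier results of these data known. Cltrn, the collectrin gene, was at 329, 228, 233 and 161 CPM in c-MafΔTAM mice and at 416, 423, 574 and 606 CPM in controls. Every c-MafΔTAM value was below every control value, with a log2 fold change of -1.09 (SE 0.214, 95% interval -1.57 to -0.61, adjusted P = 0.0334). The call was lost without c-MafΔTAM mouse 2 or 3 or control mouse 3 or 4 (adjusted P 0.0918 to 0.113). Slc9a3r1, the PDZ scaffold NHERF1, was at 150.4 to 174 CPM and 203 to 263 CPM (log2 fold change -0.46, SE 0.0978, adjusted P = 0.0334), a call kept in 1 of 8 fits with 1 mouse left out.

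Anpep, an aminopeptidase of the brush border, had a log2 fold change of -0.16 (95% interval -0.57 to 0.25). The scaffolds Pdzk1 and Slc9a3r2 had values of -0.35 (95% interval -0.75 to 0.052) and -0.12 (95% interval -0.30 to 0.059), and of these only Pdzk1 shares much of its exonic sequence with other genes (41.7%). The log2 ratio of Slc6a19 to Cltrn differed by -0.16 between groups (exact permutation P = 0.800, n = 4 each), and the values were spread widely, from -2.02 to -0.06 in c-MafΔTAM mice and from -1.20 to -0.34 in controls.

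Members of the heteromeric amino acid exchangers, each a light chain paired with a heavy chain, and the aromatic amino acid carrier Slc16a10 fell in 5 of 6 cases, beside 1.58% of all tested genes. This list was chosen with earlier results of these data known. The heavy chain Slc3a2 (4F2hc) was at 60.9, 93.3, 88.6 and 90.5 CPM in c-MafΔTAM mice and 182, 199.7, 217 and 199 CPM in controls, a log2 fold change of -1.26. Its light chains Slc7a7 (y+LAT1) and Slc7a8 (LAT2) had log2 fold changes of -1.20 and -1.35, and Slc16a10 (TAT1) had -1.02. In the brush border cystine and dibasic amino acid system, the light chain Slc7a9 fell by 0.84 on the log2 scale, while its heavy chain Slc3a1 was at 489 to 543 CPM and 462 to 549.6 CPM, with an interval of -0.22 to 0.17. Reads over 26.5% of the exonic bases of Slc3a1, shared with Prepl, were left uncounted.

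**Figure D3:**
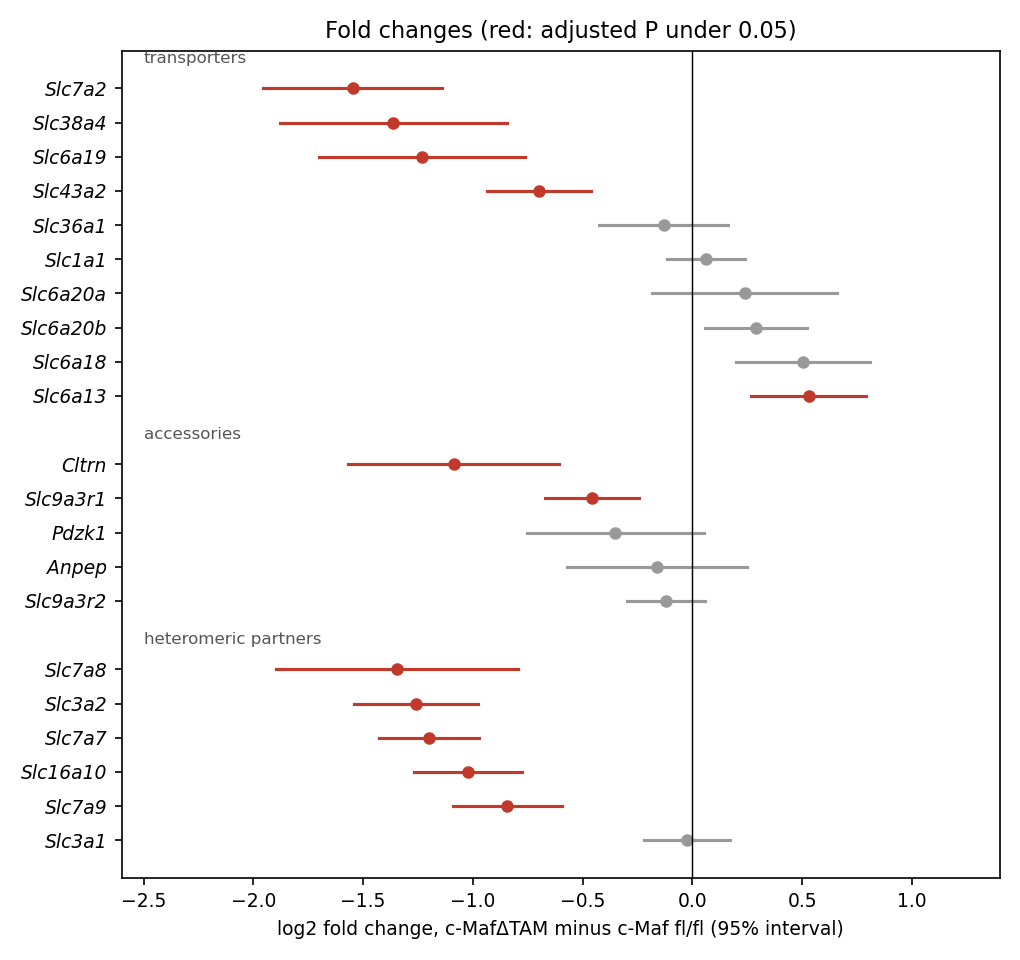
Log2 fold changes (c-MafΔTAM minus c-Maf fl/fl) with 95% intervals for the 10 transporters, 5 accessories and 6 heteromeric partners. Red marks an adjusted P under 0.05. The values run from -1.55 for Slc7a2 to 0.53 for Slc6a13.

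Among the other genes of the Slc1, Slc6, Slc7, Slc36, Slc38 and Slc43 families, 33 of 51 had enough reads to be tested. Slc7a7, Slc7a8 and Slc7a9 fell, and Slc6a12 and Slc6a6 rose, so 3 and 2 of 33 were called, beside 1.58% and 0.586% of all genes. The 3 that fell are also counted among the heteromeric partners. Slc6a6, the taurine carrier TauT, was at 763, 826, 696 and 658 CPM in c-MafΔTAM mice and at 417, 408, 554 and 548 CPM in controls, a log2 fold change of 0.61 (SE 0.126, adjusted P = 0.0286). The median log2 fold change of the 33 was 0.046.

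Levels of different genes were compared per kilobase of exon, without a test. In control kidneys the order of mean CPM per kilobase was Slc6a18 (97.5), Slc6a19 (58.3), Slc6a13 (27.5), Slc43a2 (24.5), Slc36a1 (15.9), Slc6a20b (15.8), Slc1a1 (14.9), Slc6a20a (1.93), Slc7a2 (1.54) and Slc38a4 (0.80). Ranges over mice overlapped between Slc6a13 and Slc43a2, among Slc36a1, Slc6a20b and Slc1a1, and between Slc6a20a and Slc7a2. In c-MafΔTAM kidneys Slc6a18 was again first (138), followed by Slc6a13 (39.6), whose lowest mouse (34.1) was above the highest for Slc6a19 (31.3). Slc6a19 came next (24.8), with a range that overlapped that of Slc6a20b (19.3). Slc43a2 (15.1) had a range that overlapped those of Slc1a1 (15.6) and Slc36a1 (14.5), so on this scale its place was not separated from theirs. These values divide by all exonic bases, including those shared with another gene. Over unshared bases only, a setting added after seeing the data, the control means were 21.9 for Slc1a1, 20.04 for Slc6a20b and 15.9 for Slc36a1, which turns their order around, while the other places in controls stayed. In c-MafΔTAM mice on that scale, Slc43a2 (14.6 to 17.7) lay below Slc1a1 (21.3 to 24.8) and still overlapped Slc36a1 (12.5 to 15.8).

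Some members differed by Xist level within the control group, where mice 1 and 2 had high and mice 3 and 4 low Xist. Slc6a19 averaged 326 CPM in the high-Xist and 257 CPM in the low-Xist controls, and Slc36a1 75.1 and 104 CPM. The classes were also apart for Slc6a20a (9.32 and 6.44 CPM), Slc6a20b (126 and 144 CPM) and Slc1a1 (119 and 128 CPM). Cltrn went the same way as Slc36a1, at 419.6 and 589.9 CPM. These differences between classes of 2 controls were not tested. The differences between c-MafΔTAM and controls were seen in both classes for the members that fell. In high-Xist mice the difference of mean log2 CPM was -1.25 for Slc6a19, -1.52 for Slc7a2, -1.16 for Slc38a4 and -0.67 for Slc43a2. In low-Xist mice, with 1 c-MafΔTAM mouse, it was -1.67, -1.76, -1.67 and -0.84, respectively. For Slc6a13 the differences were 0.67 and 0.33, and for Slc36a1 0.091 and -0.27.

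The upstream sequences of 8 of the 10 members were available from RefSeq (GRCm38.p6), and those of Slc6a18 and Slc7a2 were not used here. The MAF recognition element contains the core TGCTGA, which was searched on both strands in the 250 bases before each start. Slc36a1 (first base 234 bases before the start) and Slc43a2 (99 bases before its first start) held it, that is 2 of 8 members, as did 16.1% of all 32851 promoters. The longer GCTGANTCA, which can overlap this core, was in none of the 8 members and in 1.02% of all promoters. The motif TGANTCA, which it contains, was in none of the 8 and in 6.75% of all, and TGACGTCA in none of the 8 and in 1.55%. GTTAAT, from the binding site of HNF1, a proximal tubule homeodomain factor, was in 3 of 8 members (Slc6a20a, Slc6a13 and Slc36a1) and in 6.43% of all promoters. Several genes have more than 1 start, which gives them more chances of a match. The longer GTTAATNAT, which contains GTTAAT, was in 0.737% of promoters and in that of Cltrn. Among the 5 accessories, TGANTCA was found before the second start of Slc9a3r2, at 73 bases, and none of the other letters was found apart from those before Cltrn. The promoters of 3 genes that fell and of Slc6a13, which rose, are shown 5′ to 3′ and end at the base before the start, with matches in capitals.
Slc6a19, chr13:73692637-73692886, minus strand: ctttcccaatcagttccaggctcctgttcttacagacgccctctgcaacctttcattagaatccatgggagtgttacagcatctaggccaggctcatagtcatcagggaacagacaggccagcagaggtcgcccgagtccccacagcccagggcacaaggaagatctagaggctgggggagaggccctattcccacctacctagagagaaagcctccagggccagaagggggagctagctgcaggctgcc
Slc38a4, chr15:97055957-97056206, minus strand: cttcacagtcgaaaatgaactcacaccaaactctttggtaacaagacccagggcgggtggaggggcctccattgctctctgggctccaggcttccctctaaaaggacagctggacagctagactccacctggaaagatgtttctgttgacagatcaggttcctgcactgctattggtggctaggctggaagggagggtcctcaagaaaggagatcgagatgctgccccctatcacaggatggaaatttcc
Cltrn, chrX:164089937-164090186, plus strand: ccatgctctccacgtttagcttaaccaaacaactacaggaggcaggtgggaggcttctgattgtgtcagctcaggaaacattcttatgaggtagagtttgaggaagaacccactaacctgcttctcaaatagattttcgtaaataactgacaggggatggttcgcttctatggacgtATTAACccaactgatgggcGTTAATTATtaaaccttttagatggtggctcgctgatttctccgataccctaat
Slc6a13, chr6:121300038-121300287, plus strand: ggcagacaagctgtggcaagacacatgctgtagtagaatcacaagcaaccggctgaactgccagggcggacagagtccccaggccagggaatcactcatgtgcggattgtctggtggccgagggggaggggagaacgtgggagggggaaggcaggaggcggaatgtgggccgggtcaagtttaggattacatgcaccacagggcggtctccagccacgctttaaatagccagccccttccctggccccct
In these windows the letters searched were found before Cltrn, as GTTAAT with its first base 54 bases and, on the opposite strand, 73 bases before the start, and in no other. The GTTAAT match of Slc6a13 lies before its second start, 68 bases upstream, and is not shown. The window before Slc43a2 lies in exons of Gm45606 and is not shown either. The RefSeq starts of Slc6a19, Slc6a13 and Cltrn lie inside the gene spans of the count table's annotation, which begin further upstream. A match or its lack describes the letters and not a binding site.

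Over the 8 mice, the genes most like Slc6a19 in log2 CPM among 12021 with a mean of at least 5 CPM were Hes6 (r = 0.989), Folh1 (r = 0.984) and Oxld1 (r = 0.980). Those most like Slc7a2 were Pex10 (r = 0.979), Col4a3 (r = 0.977) and Slc22a5 (r = 0.974). The points share the difference between the groups, which enters each r.

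**Figure D4:**
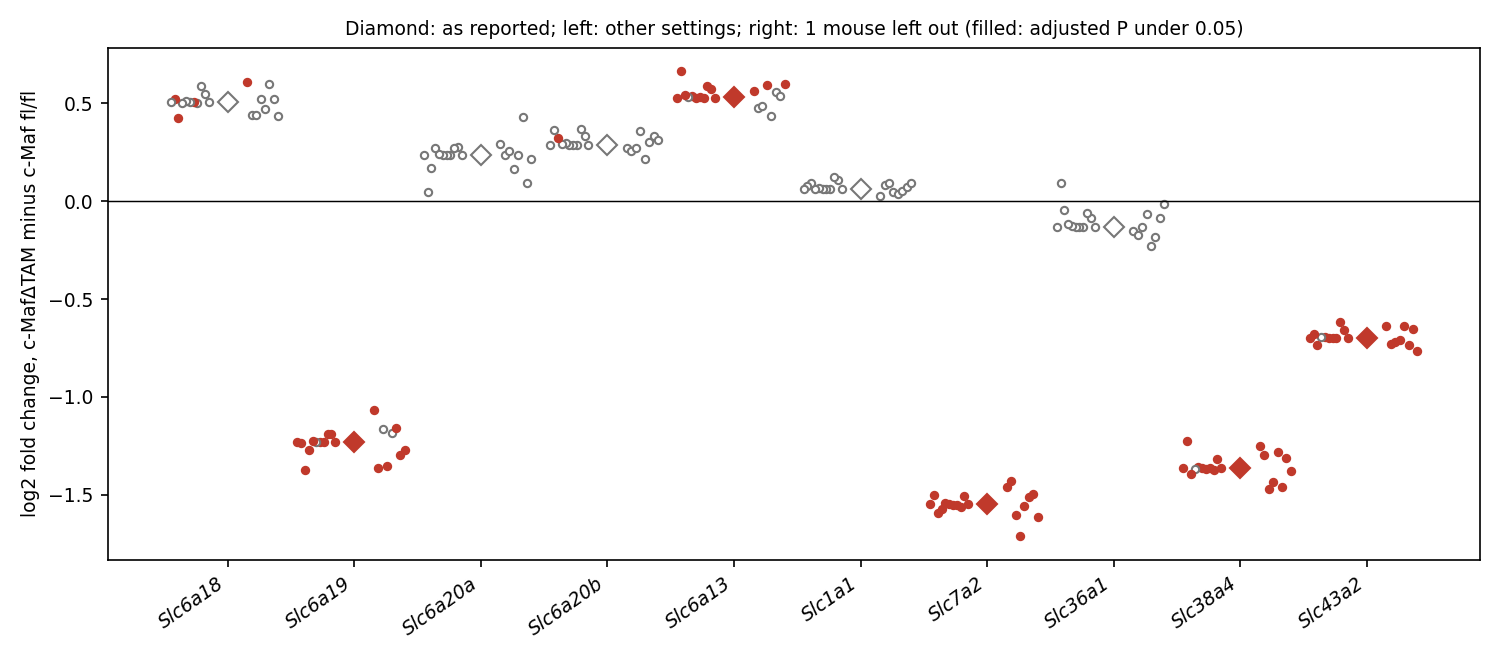
Log2 fold change of each transporter as reported (diamond), under the other settings (left) and with 1 mouse left out (right). Filled symbols have an adjusted P under 0.05. Slc7a2 is filled throughout, and Slc6a13 is open in 5 of 8 fits with 1 mouse left out.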

How the data were processed

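Whole-kidney RNA of 8 mice was rRNA-depleted and sequenced as pairs of 36 bases per the labels. The authors deposited raw counts per gene, made with featureCounts (2.0.1 in the file header, Subread 2.0.2 in the submitters' processing notes) on GRCm38 with Ensembl exons grouped by gene name, and list edgeR 3.36.0. Counting ignored strand although the library kit keeps it, counted the reads of a pair separately, and left out reads over several genes, so overlapping exons lower a count.

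Here, genes were filtered by filterByExpr, scaled by TMM and compared with edgeR 4.0.16 (robust quasi-likelihood F test, R 4.3.3), with Benjamini-Hochberg adjustment over 20149 genes. Intervals of 95% came from the same fit. Within-mouse ratios of log2 CPM (prior count 2) were tested by exact permutation over 70 assignments. Alternatives used limma 3.58.1 and DESeq2 1.42.0, among others. The main fit, exact test, limma and DESeq2 were tested on simulated counts. Members and lists were chosen with earlier results of these data known. Named genes were the 10 members, accessories, heteromeric partners, called family relatives and the 3 genes most like Slc6a19 and Slc7a2, with Maf, Xist and cell markers as checks. 1 accessory gene is not reported here. Nothing in the labels says how litters were shared, so P values measure the spread between these mice. Libraries of 16649129 to 22990257 reads limit genes with few counts (20 in the lowest Slc38a4 library). No library pair agreed within sampling noise.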

Additional observations from a re-analysis of the deposited data

Results flagged for a closer look

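In 42 groups of 4 mice (10 members, 5 accessories and 6 heteromeric partners in each genotype), 2 had a mouse whose gap to the nearest other, as a share of the group's range, was above Dixon's 95% critical value. Chance gives about 2.1 such groups in 42. Slc6a20b was at 140.0 CPM in c-MafΔTAM mouse 4 and between 172 and 176 CPM in its group otherwise (gap 0.879 of the range). Slc3a2 was at 60.9 CPM in c-MafΔTAM mouse 1, the c-MafΔTAM mouse with low Xist, and at 88.6 to 93.3 CPM in the others (0.855).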

How the results depend on the processing

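Among the 10 transporters, 4 fell in the reported fit (1.58% of all genes) and 2 with a replicate block (0.551% of all genes). At an adjusted P under 0.01 it was 2, and with 1 mouse left out 3 to 4. The number that rose was 1 (0.586% of all genes). It was 2 with DESeq2 (1.58% of all genes), 3 with the Xist level as a covariate (2.78%) and 2 in high-Xist mice only (1.53%). With that covariate and without the low-Xist c-MafΔTAM mouse, a setting chosen after seeing the data, it was 2. It was 0 with the replicate block (0.0893% of all genes), 0 at 0.01, and 0 to 2 with 1 mouse left out. Family relatives that fell numbered 3, 5 with the Xist covariate (4.37% of all genes) and 2 to 3 with 1 mouse left out. Those that rose numbered 2, 0 with the replicate block, 1 at 0.01 and 1 to 2 with 1 mouse left out. Accessories that fell numbered 2, 1 with the exact test, 1 with a filter of at least 1 count, 0 with the replicate block, 0 at 0.01, and 0 to 2 with 1 mouse left out. Directions turned for Slc36a1 (0.093 in high-Xist mice) and for the ratios of Slc6a20b to Slc6a20a (-0.13 to 0.23) and Slc6a19 to Cltrn (-0.45 to 0.20) with 1 mouse left out. The cause was not tested. The ratio of Slc6a19 to Slc6a18 stayed between -1.91 and -1.65 and that of Slc43a2 to Slc6a19, with a difference of 0.58, between 0.45 and 0.70. Slc6a19 lost its call with a filter of at least 1 count (adjusted P = 0.0945), and Slc6a20b gained one with the Xist covariate (0.0360). Over all genes, calls numbered 318 lower and 118 higher, against 567 and 319 with DESeq2 and 880 and 561 with the Xist covariate. They were 467 and 322 in high-Xist mice only, and 111 and 18 with the replicate block. Deviations from the group means correlated at -0.373, 0.152, -0.11 and -0.331 between the mice numbered 1 to 4. At numbers 1, 3 and 4 a low-Xist mouse stood against a high-Xist mouse, and at number 2 both had high Xist. These correlations therefore cannot tell whether the numbers pair the mice. Depth limits Slc38a4 (20 to 80 counts) and Slc7a2 (70 to 335 counts).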

Other observations

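Slc7a13, a relative in the Slc7 family that carries cystine in proximal tubule segment S3, differed far more between mice of low and high Xist than between genotypes. It was chosen here after its values were seen. It was at 204 CPM in the low-Xist c-MafΔTAM mouse and at 264 and 324 CPM in the low-Xist c-Maf fl/fl mice, and at 0.41 to 1.08 CPM in the other 5 mice. Its log2 fold change between genotypes of -1.51 had a 95% interval of -7.48 to 4.45 (adjusted P = 0.845).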
